A study of Mus musculus with 16 samples.

Results

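Gut tubes of mouse embryos at E8.75 (13 somites) were sequenced either cut into 4 consecutive sections or whole, and the mean of the sections was set against the whole tissue across all genes. The comparison used 10 of the 16 libraries of the series: 8 libraries of sections (anterior, anterior-midgut, midgut-posterior and posterior, 2 of each) and 2 libraries titled bulk tissue, all chosen by title. A whole tube is the sum of its sections, so the comparison asks what differed between the 2 ways of taking it. Genes of the response to handling and of tissue content were looked at. The sex of the embryos and any batch enter the comparison as well. The labels give neither strain nor genotype for these libraries and do not say how many embryos went into one. Per the labels' protocol, torsos were treated on ice with pancreatin and trypsin and the tubes were freed with needles. That protocol was written for single cells from Afp-GFP TG/+ embryos, in which the Afp promoter marks visceral endoderm, and it does not describe how sections were cut. The 2 libraries of dissociated cells, which the labels' protocol holds at 37 °C in Accutase and trypsin for 20 min, are given beside the results on handling. The labels do not say whether replicates came from separate embryos, so those of a section may be technical. The 2 bulk libraries differed 368-fold in Xist, described below, and so were not repeats of the same sample. The p-values measure only the spread between these samples.

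The gut tube of this stage is an epithelium formed by definitive endoderm together with cells that came from the visceral endoderm, wrapped in splanchnic mesoderm and lying next to the heart tube, dorsal aortae, notochord and neural tube. Foregut, midgut and hindgut are already set apart by transcription factors and Hox genes. Dissection and warm enzyme treatment are known to induce immediate early genes, which code for transcription factors such as Fos, Jun and Egr1 and for proteins that end the signal again; their mRNAs appear within minutes and need no new protein.

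Totals were 70987960 to 84509973 counts in the section libraries and 59165411 and 63843121 counts in bulk replicates 1 and 2. Mitochondrial transcripts took 1.96% to 2.63% of the counts in sections and 1.63% and 2.56% in bulk tissue. Levels are CPM, the reads of a gene relative to the library total, with totals scaled by trimmed means of M values (TMM). Ratios are the mean of the 4 section levels over the bulk level, on the log2 scale, so that a positive ratio means higher in sections. Ratios, their standard errors (SE) and p-values come from edgeR's quasi-likelihood fit of 16790 genes, and a gene passed where its p, adjusted by Benjamini-Hochberg over that whole set, was under 0.05.

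Few genes passed at this threshold, though 13% of genes were higher and 8.52% lower in sections at an unadjusted p under 0.05. Over all genes tested, 479 (2.85%) were higher in sections and 171 (1.02%) were lower, 3.87% in either direction, and the median log2 ratio was 0.03. With library totals alone as the scale the split was 205 higher and 275 lower, so the balance of directions depends on the scaling. The 8 section libraries lay wholly above both bulk libraries in 1339 genes (7.97%) and wholly below them in 1078 (6.42%). Of the 479 higher genes, 44 differed by more than a log2 ratio of 1, and of the 171 lower genes, 59 did. The count of 650 genes fell by more than 1.5 times without any 1 of 8 libraries and not without posterior replicates 1 and 2 (577 and 533): it was 59 without bulk replicate 1, 306 without bulk replicate 2, 307 and 203 without anterior replicates 1 and 2, 221 and 308 without anterior-midgut replicates 1 and 2, and 168 and 305 without midgut-posterior replicates 1 and 2.

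Of 3107 genes that differed among the sections, bulk tissue lay between the lowest and the highest section mean in 2963 (95.4%). Of the other 13683 genes it did so in 6991 (51.1%). The first set was chosen for differences among sections, which makes a place between their extremes likelier. The 2 shares therefore cannot be set against each other, and why bulk tissue lay outside the range in the other genes was not tested. The weights of the sections that fitted bulk tissue most closely over the regional genes were 38.7% anterior, 10.7% anterior-midgut, 25.4% midgut-posterior and 25.2% posterior. The bulk libraries differed in this: the anterior-midgut share was 14.7% fitted to bulk replicate 1 and 6.77% fitted to replicate 2, and the posterior share 19.6% and 30.7%.

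A whole tube made up of the 4 sections cannot lie outside their range, whatever the share of each, and a second test therefore asked which genes differed from bulk tissue in the same direction in every section. It passed 15 genes (0.0893%), 10 of them higher in every section (0.0596% of genes tested) and 5 lower in every section (0.0298%), and 801 genes had an unadjusted p under 0.05. The higher genes were Gm9844, Lbp, Cwc22, Gnas, Bri3, Tmsb10, Hnrnpab, Ybx1, Srp19 and Serbp1, and the lower genes were Ins1, Gcg, Ins2, Pcsk2 and Malat1. The predicted gene Gm9844 was the 1 gene that passed in each of the 10 fits that left out a library, and 4 of the 15 passed in none. The count of 15 was 4 and 2 without bulk replicates 1 and 2, 6 without either anterior replicate, 8 and 9 without anterior-midgut replicates 1 and 2, and 9 without midgut-posterior replicate 1.

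**Figure D1:**
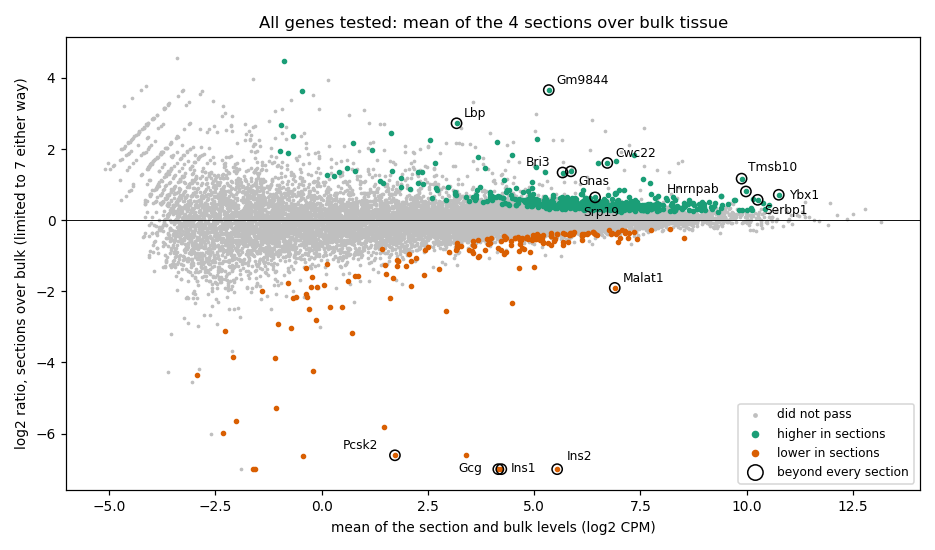
Log2 ratio of the mean of the 4 sections over bulk tissue (vertical axis, limited to 7 either way) against the mean level in log2 CPM (horizontal axis), 1 point per gene tested. Green and orange points passed as higher (479) or lower (171) in sections, and circles with names mark the 15 genes beyond every section; Ins1, Gcg and Ins2 stand at the lower limit and Gm9844 is the named gene with the highest ratio.

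The largest differences were in hormone genes of the pancreatic islet, which were counted in both bulk libraries and were at or near 0 in every section library. Ins2, an insulin gene, had 0, 0.01 and 0.15 CPM in sections (lowest, median and highest of 8 libraries), against 93.5 and 92.8 CPM in bulk tissue. All sections were far below both bulk libraries, at a log2 ratio of -11.10 (SE 0.52, adjusted p = 0.000208 by edgeR). Ins1, the other insulin gene, had 0 counts in all 8 section libraries, against 37.8 and 37.1 CPM in bulk tissue. Gcg, which codes for glucagon, likewise had 0 counts in all 8, against 35.6 and 35.8 CPM in bulk tissue. Against a floor of 3 counts over the 8 section libraries, Ins1 was at least 7531-fold lower and Gcg at least 7169-fold lower in sections (adjusted p = 0.00298 by edgeR for each). Floors cover counting error only. Ins1 and Ins2 are similar in coding sequence, and how reads shared between them were assigned is not given in the sources used here.

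Other products of islet cells differed in the same direction. A list of 15 islet hormone and granule genes was drawn up after the values were seen, so its counts describe it and test nothing: 12 passed as lower in sections, none passed as higher, and the median log2 ratio was -5.63, beside 0.03 over all genes. The summed level of the list was 3.61, 3.96 and 5.81 CPM in sections, against 224 CPM in each bulk library. Iapp, the amyloid peptide released with insulin, had 0, 0.138 and 0.745 CPM in sections, against 20.9 and 21.0 CPM in bulk tissue (log2 ratio -6.61, SE 0.63, adjusted p = 0.00293 by edgeR). Pcsk2, which cleaves prohormones, had 0.0261, 0.0489 and 0.145 CPM in sections, against 6.16 and 6.93 CPM in bulk tissue (log2 ratio -6.61, SE 0.48, adjusted p = 0.000621 by edgeR). The granule protein gene Chga had a level of its own in sections, 1.28, 2.32 and 3.31 CPM, against 13.5 and 12.4 CPM in bulk tissue (log2 ratio -2.54, SE 0.25, adjusted p = 0.00293 by edgeR). Sst, somatostatin, did not pass, with 0, 0.503 and 1.18 CPM in sections, against 1.86 and 2.16 CPM in bulk tissue (adjusted p = 0.108 by edgeR, 0.0361 and 0.0332 without posterior replicates 1 and 2).

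The digestive enzyme genes of pancreatic acinar cells were at low levels. Of 10 such genes, also listed after the values were seen, 8 were tested and 2 passed as lower in sections. Ctrb1, a chymotrypsinogen, had 0 CPM as the lowest and the median and 0.0530 CPM as the highest level in sections, against 1.47 and 1.44 CPM in bulk tissue (adjusted p = 0.0169 by edgeR, but 0.123 and 0.0651 without bulk replicates 1 and 2). Prss2, a trypsinogen, had 0 counts in all section libraries, against 0.576 and 0.780 CPM in bulk tissue, at least 136-fold lower in sections (adjusted p = 0.0374 by edgeR). That call was lost without any 1 of 8 libraries, with adjusted p from 0.0542 to 0.204; without posterior replicate 1 or 2 it was kept. Of 12 tested genes that specify the liver and pancreas buds, 0 passed by edgeR and 1 by DESeq2, and 2 had an unadjusted p under 0.05. Over all genes, 3.87% passed by edgeR, and DESeq2 passed more, 1682 of 16790. Pdx1, the pancreatic bud transcription factor, had 0.0233, 0.755 and 6.39 CPM in sections, against 1.66 and 1.03 CPM in bulk tissue (adjusted p = 0.735 by edgeR).

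The dissociated cells resembled bulk tissue in these genes. Ins2 had 143 and 107 CPM in dissociated replicates 1 and 2, and Gcg had 50.04 and 41.2 CPM. The proportions among the hormones were close in the 4 libraries of whole tubes. Ins1 counts were 39.7% and 39.2% of Ins2 counts in dissociated cells and 40.5% and 40% in bulk tissue. Gcg counts were 35.1% and 38.6% of Ins2 counts in dissociated cells and 38.1% and 38.5% in bulk tissue. Iapp counts were 20.9% and 21.2% in dissociated cells and 22.4% and 22.6% in bulk tissue. Which cells or material these transcripts came from, and whether they came from the embryos at all, was not tested. In every result below, fewer cells of a type and less RNA per cell cannot be told apart.

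**Figure D2:**
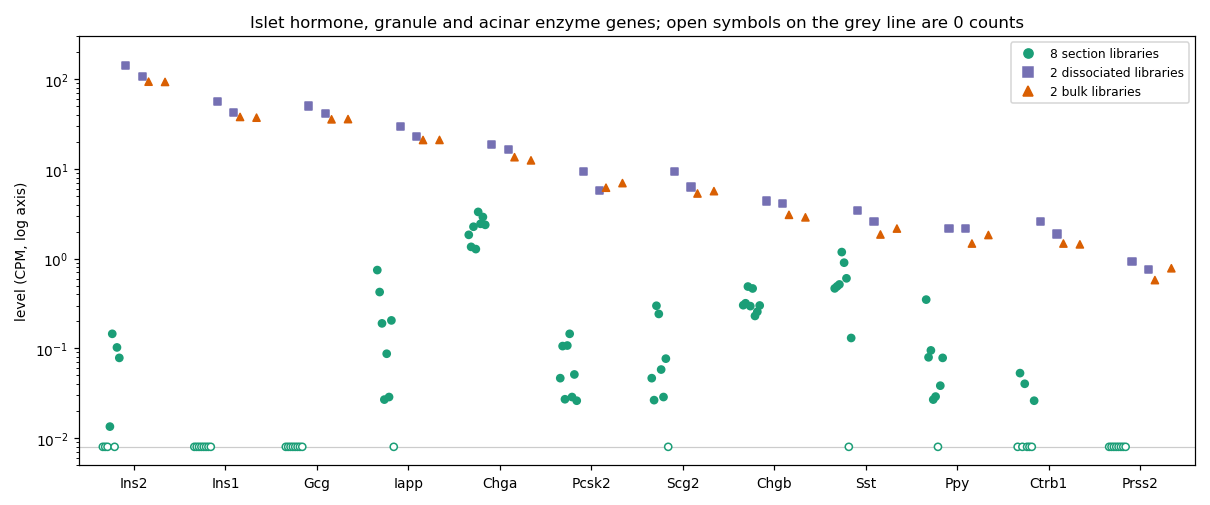
Level in CPM (log axis) of 10 islet hormone and granule genes and 2 acinar enzyme genes in each section, dissociated and bulk library. Open symbols on the grey line are libraries with 0 counts, the sections of Ins1, Gcg and Prss2 among them, and bulk and dissociated libraries stand above every section library for each gene shown.

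Immediate early genes were higher in sections. Of the 22 genes of the list, all tested, 11 passed as higher in sections and 0 as lower, where 2.85% and 1.02% of all genes did. The median log2 ratio of the list was 1.65, beside 0.03 over all genes, and in 16 of the 22 the 8 section libraries lay wholly above both bulk libraries, as in 7.97% of all genes. The summed level of the list was 1168, 1887 and 2156 CPM in sections, against 498 and 729 CPM in bulk tissue. Replicate 1 was below replicate 2 in every section, from 1168 and 2030 CPM (anterior) to 2015 and 2156 CPM (midgut-posterior), and in bulk tissue. None of the 22 passed the test against every section (19 had an unadjusted p under 0.05 in the test of the mean). The count depends on bulk replicate 1 and midgut-posterior replicate 1: 11 passed with all libraries, 1 without bulk replicate 1 (Jund) and 7 without midgut-posterior replicate 1, and in the other 8 fits that left out a library the count was within 1.5 times of 11.

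Among the AP-1 subunits, Jun had 182, 255 and 367 CPM in sections, against 54.7 and 87.6 CPM in bulk tissue. Its lowest section library was above both bulk libraries, at a ratio of 3.59-fold (log2 1.84, SE 0.26, adjusted p = 0.0118 by edgeR). Junb had 25.2, 55.8 and 84.0 CPM in sections, against 8.25 and 14.6 CPM in bulk tissue, 4.91-fold higher in sections (adjusted p = 0.00969 by edgeR). Jund, the least inducible of the Jun genes, had 178, 281 and 323 CPM in sections, against 120 and 116 CPM in bulk tissue. It was 2.21-fold higher in sections (adjusted p = 0.000208 by edgeR) and the 1 gene of the list that passed in each fit that left out a library. Without bulk replicate 1 the adjusted p was 0.123 for Jun and 0.0998 for Junb.

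The Fos and Egr genes, among the quickest to respond, did not pass, and the bulk libraries were far apart in them. Fos had 91.5, 192 and 223 CPM in sections, against 2.77 and 58.5 CPM in bulk replicates 1 and 2. The section libraries lay above both, but the bulk libraries were 21.1-fold apart (log2 ratio 2.50, SE 0.74, adjusted p = 0.0999 by edgeR, and 0.00555 without bulk replicate 2). Egr1 had 44.0, 137 and 207 CPM in sections, against 3.49 and 37.9 CPM in bulk tissue (log2 ratio 2.81, SE 0.66, adjusted p = 0.0538 by edgeR, and 0.0124 without bulk replicate 2). Fosb had 29.4, 86.7 and 136 CPM in sections, against 0.736 and 34.4 CPM in bulk tissue (adjusted p = 0.181 by edgeR, and 0.0160 without bulk replicate 2).

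Genes that code for Krüppel-like factors and for feedback inhibitors were higher in sections as well. Klf2 had 23.3, 27.1 and 36.5 CPM in sections, against 4.05 and 8.37 CPM in bulk tissue, 4.58-fold higher in sections (adjusted p = 0.00849 by edgeR, 0.0527 without bulk replicate 1). Klf4 was 3.43-fold higher in sections (adjusted p = 0.0129 by edgeR, 0.123 without bulk replicate 1). Atf3, a stress-induced bZIP factor, had 14.2, 34.5 and 61.1 CPM in sections, against 8.24 and 11.2 CPM in bulk tissue, 3.58-fold higher in sections (adjusted p = 0.00864 by edgeR, 0.0981 without bulk replicate 1). Sections differed among themselves, with means of 18.3 CPM (anterior) and 56.3 CPM (midgut-posterior).

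Dusp1, a phosphatase that inactivates MAP kinases, had 29.4, 49.99 and 62.0 CPM in sections, against 12.5 and 22.1 CPM in bulk tissue, 2.80-fold higher in sections (adjusted p = 0.0206 by edgeR, 0.173 without bulk replicate 1 and 0.0559 without midgut-posterior replicate 1). Zfp36, which speeds the decay of mRNAs with AU-rich elements, had 10.1, 21.2 and 29.1 CPM in sections, against 5.81 and 9.37 CPM in bulk tissue, 2.78-fold higher in sections (adjusted p = 0.0218 by edgeR, 0.193 without bulk replicate 1 and 0.0544 without midgut-posterior replicate 1). Ier2, Klf6 and Cyr61 completed the 11, at 1.80-fold, 3.07-fold and 3.18-fold higher in sections (adjusted p = 0.0159, 0.0305 and 0.0348 by edgeR). These 3 were also lost without bulk replicate 2 (adjusted p = 0.0704, 0.0854 and 0.0653), and without bulk replicate 1 their adjusted p was 0.129, 0.246 and 0.278. Klf6 was also lost without either anterior-midgut or either midgut-posterior replicate, and Cyr61 without anterior replicate 2 or either midgut-posterior replicate, with adjusted p from 0.0562 to 0.0769.

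Immediate early promoters are bound by serum response factor at a CArG box and by CREB at the palindrome TGACGTCA. In RefSeq promoters of build GRCm38.p6 (250 bases before to 50 after the gene start), 16 of the 22 genes were matched by symbol or synonym. The CArG box (CC, 6 bases A or T, GG) was found in 2 of the 16 (12.5%), beside 1.81% of all 27025 genes of the table, and TGACGTCA in 2 (12.5%), beside 2.03%. Both motifs read the same on the 2 strands, and they do not overlap each other. The stretches around these motifs are shown 5′ to 3′ on the gene's strand with the motif in capitals, because these are the classical elements of immediate early promoters. The first 2 belong to genes that passed, and Egr2 and Btg2 did not pass (adjusted p = 0.0779 and 0.0606 by edgeR). A match is a description of letters and not a bound site.
Dusp1, chr17:26508566-26508655, minus strand: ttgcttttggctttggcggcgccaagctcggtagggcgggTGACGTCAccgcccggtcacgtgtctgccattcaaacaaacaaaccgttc
Zfp36, chr7:28379237-28379326, minus strand: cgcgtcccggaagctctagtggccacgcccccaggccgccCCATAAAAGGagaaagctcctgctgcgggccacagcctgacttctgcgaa
Egr2, chr10:67537454-67537543, plus strand: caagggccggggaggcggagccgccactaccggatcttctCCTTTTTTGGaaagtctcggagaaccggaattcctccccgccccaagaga
Btg2, chr1:134079272-134079361, minus strand: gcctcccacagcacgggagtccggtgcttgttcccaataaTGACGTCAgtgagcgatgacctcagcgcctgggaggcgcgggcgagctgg

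The difference was seen in each section. Against bulk tissue, 7 of the 22 passed as higher in the anterior section (1.86% of all genes were higher there, 2.37% lower and 4.23% either), 9 in the anterior-midgut (3.17%, 3.07% and 6.24%), 11 in the midgut-posterior (2.39%, 2.66% and 5.05%) and 9 in the posterior section (4.33%, 4.35% and 8.68%). By edgeR 0 passed as lower in any of them. The list's median log2 ratio was largest in the midgut-posterior section, at 1.87. These 4 comparisons share both bulk libraries and so are not independent.

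The dissociated cells stood with the sections, not with bulk tissue, in these genes. The summed level of the list was 2365 and 2924 CPM in dissociated replicates 1 and 2, beside at most 2156 CPM in a section library. For each of the 11 genes that passed, both dissociated libraries were above both bulk libraries. In 4 of the 11 both lay within the range of the 8 section libraries. Fos had 289 and 395 CPM in dissociated replicates 1 and 2, above the highest section library.

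**Figure D3:**
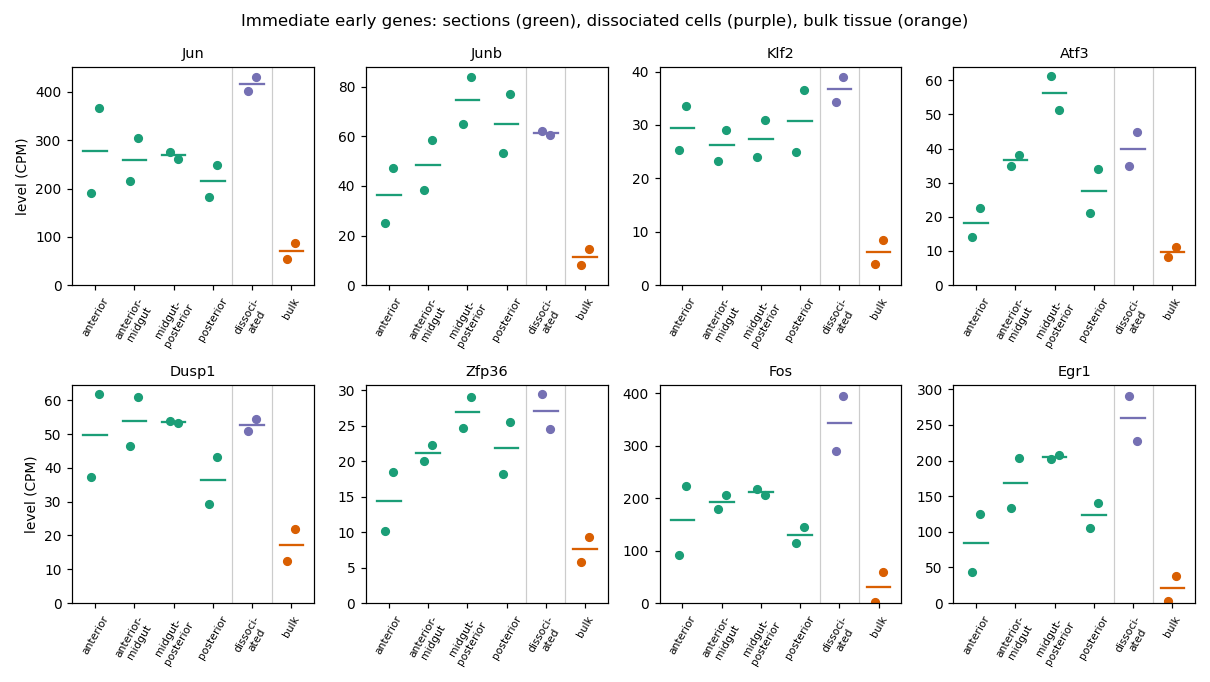
Level in CPM of 8 immediate early genes in each library, with sections from anterior to posterior at the left, dissociated cells next and bulk tissue at the right; points are libraries and bars are means of 2. The bulk libraries lie below every section library in all 8 genes, and Fos and Egr1 show the gap between the 2 bulk libraries.

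Other stress responses had 0 to 2 genes higher in sections, against shares of 2.85% higher and 1.02% lower over all genes. Of 15 heat shock genes, 1 was higher and 1 lower in sections, with a median log2 ratio of -0.05. Hspb1, a small heat shock protein, had 2.77, 3.94 and 10.3 CPM in sections, against 2.57 and 1.89 CPM in bulk tissue (log2 ratio 1.18, SE 0.23, adjusted p = 0.0324 by edgeR). Hsph1, a chaperone of the Hsp110 family, had 236, 321 and 338 CPM in sections, against 484 and 382 CPM in bulk tissue (log2 ratio -0.51, SE 0.11, adjusted p = 0.0408 by edgeR). Both calls are weak: Hspb1 was kept only without posterior replicate 1 or 2, and Hsph1 only without those or bulk replicate 2, and the other fits that left out a library gave adjusted p from 0.0530 to 0.327. The inducible Hsp70 genes were low. Hspa1a had 0.0384, 0.306 and 0.502 CPM in sections, against 1.79 and 0.645 CPM in bulk tissue (adjusted p = 0.0847 by edgeR, 0.0370 without posterior replicate 2). Hspa1b had 0.594, 0.926 and 1.63 CPM in sections, against 5.05 and 1.59 CPM in bulk tissue (adjusted p = 0.0568 by edgeR, 0.0376 without bulk replicate 2).

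By edgeR, 0 of 14 endoplasmic reticulum folding genes, 0 of 18 hypoxia and glycolysis genes, 0 of 14 p53 response genes and 0 of 14 cholesterol synthesis genes passed. Of them, 5, 3, 2 and 1 had an unadjusted p under 0.05. By DESeq2, 3, 0, 2 and 0 passed, beside 1682 of all 16790 genes. Hspa5, the main chaperone of the endoplasmic reticulum, had 1290, 1425 and 1746 CPM in sections, against 1787 and 1533 CPM in bulk tissue (adjusted p = 0.219 by edgeR). Vegfa, a hypoxia target, had 111, 184 and 226 CPM in sections, against 139 and 168 CPM in bulk tissue (adjusted p = 0.559 by edgeR). Of 14 integrated stress response genes 2 were higher in sections, Atf4 and Cebpb, of 11 oxidative and metal response genes 1 (Gclm), and of 9 inflammatory response genes 1 (Nfkbia), with 0 lower in each list by edgeR. Nfkbia, the inhibitor of NF-κB that is itself an early target of that factor, had 23.8, 32.2 and 38.5 CPM in sections, against 15.98 and 17.1 CPM in bulk tissue (1.89-fold, adjusted p = 0.0117 by edgeR, 0.113 without bulk replicate 1). Atf4, Cebpb and Gclm each passed in 2 or 3 of the 10 fits that left out a library, and their adjusted p in the others ran from 0.0505 to 0.252. Ppp1r15a and Maff, both immediate early genes outside the list and named after their values were seen, were 2.54-fold and 2.21-fold higher in sections (adjusted p = 0.0220 and 0.0129 by edgeR). Without bulk replicates 1 and 2 their adjusted p was 0.210 and 0.0540 for Ppp1r15a and 0.126 and 0.0540 for Maff.

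Few genes of the gut tube itself passed, as was so of all genes (2.85% higher and 1.02% lower in sections). Of 18 gut epithelium genes, 0 were higher and 1 was lower in sections. Epcam, the epithelial adhesion protein, had 166, 223 and 412 CPM in sections, against 199 and 203 CPM in bulk tissue (log2 ratio 0.28, SE 0.29, adjusted p = 0.638 by edgeR). The lower gene was Cxcr4, a chemokine receptor of definitive endoderm and vessels, with 3.67, 12.6 and 22.5 CPM in sections, against 24.1 and 27.6 CPM in bulk tissue (log2 ratio -0.95, SE 0.19, adjusted p = 0.0321 by edgeR). The anterior (18.2 CPM) and posterior (21.6 CPM) sections came near to bulk tissue and the anterior-midgut section (3.79 CPM) was far lower. Cxcr4 was lost without either bulk, anterior-midgut or midgut-posterior replicate (adjusted p from 0.0549 to 0.162).

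Regional genes followed the same pattern, with bulk tissue between the extremes. Of the 3107 genes that differed among sections, 1.71% passed in the test of the mean, against 4.36% of the other genes. Of 18 anterior foregut and pharyngeal genes and 14 midgut and hindgut genes tested, 0 passed in either direction in the test of the mean by edgeR (2 and 1 had an unadjusted p under 0.05, and 1 of each passed by DESeq2), and bulk tissue lay between the lowest and highest section mean in 18 and 14. Nkx2-1, of the thyroid and lung fields, averaged 8.22 CPM in the anterior section and at most 0.0269 CPM in the other sections, against 4.88 and 2.25 CPM in bulk tissue. Sox2, a foregut factor, averaged 103 CPM in its anterior section and 8.11 CPM in the midgut-posterior, against 42.9 and 43.3 CPM in bulk tissue. Cdx2, which specifies the hindgut, averaged 0.851 CPM in anterior sections and 277 CPM in posterior ones, against 84.6 and 103 CPM in bulk tissue. Of 11 tested Hox genes of groups 5 to 8 and 13 of groups 9 to 13, 0 passed by edgeR (2 and 1 at an unadjusted p under 0.05, and 1 of each by DESeq2). The DESeq2 counts of these regional lists stand beside 1682 of all 16790 genes passed by DESeq2.

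Transcripts of visceral endoderm, the early yolk-handling layer whose cells persist in the tube, were unevenly spread along it. The summed level of 25 such genes was 464 and 455 CPM in the anterior section, 9673 and 3423 CPM in the anterior-midgut, 7505 and 4833 CPM in the midgut-posterior and 487 and 1927 CPM in the posterior section, against 836 and 1682 CPM in bulk tissue. The middle sections stood above bulk tissue and the anterior section below it. The mean of the sections was above bulk tissue in 24 of 24 genes tested, with a median log2 ratio of 1.57, yet 0 passed by edgeR and 3 by DESeq2 (15 had an unadjusted p under 0.05, where 13% of all genes were higher and 8.52% lower at that threshold). Higher by DESeq2 were 1141 of all 16790 genes. Afp, the fetal carrier protein, had 2.46, 414 and 1470 CPM in sections, against 115 and 228 CPM in bulk tissue (log2 ratio 1.66, SE 0.79, adjusted p = 0.266 by edgeR). Apoa1, a lipoprotein component, had 1.72, 228 and 982 CPM in sections, against 25.3 and 83.8 CPM in bulk tissue (adjusted p = 0.196 by edgeR, 0.0343 and 0.0429 without posterior replicates 1 and 2). These ratios depend on the arithmetic mean: with the mean of log levels the list's median was 0.51, Afp 0.06 and Apoa1 0.65. A mean of log levels is the lower of the 2 wherever sections differ, so regional genes fall with it whatever the bulk level. Bulk tissue lay between the lowest and highest section mean for all 24 tested genes.

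Cardiac muscle genes, markers of the heart tube, were most abundant in the front sections. Their summed level was 845 and 1470 CPM in the anterior section, 2505 and 2017 CPM in the anterior-midgut, 250 and 378 CPM in the midgut-posterior and 95.1 and 261 CPM in the posterior section, against 640 and 276 CPM in bulk tissue. In the test of the mean 0 of 17 passed by edgeR and 1 by DESeq2 (7 at an unadjusted p under 0.05). Over all genes, 3.87% passed by edgeR, and DESeq2 passed 1682 of 16790. The list's median log2 ratio was 0.74, which turned to -0.59 with the mean of log levels, a measure that is lower for any gene uneven among sections. Myl7, an atrial myosin light chain, had 1.58, 44.2 and 344 CPM in sections, against 71.7 and 18.8 CPM in bulk tissue, which were 3.81-fold apart (adjusted p = 0.208 by edgeR). Against bulk tissue, 8 of the 17 passed as higher in the anterior-midgut section (3.17% of all genes) and 12 as lower in the posterior section (4.35%).

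Few markers of other neighbouring tissues passed. Over all genes 2.85% were higher and 1.02% lower (13% and 8.52% at an unadjusted p under 0.05). A list of this size with 0 calls therefore lies near the share of all genes. By edgeR, 0 of 13 primitive blood, 0 of 15 endothelial, 0 of 17 splanchnic and lateral mesoderm, 0 of 12 notochord and node, 0 of 14 neural tube, 0 of 13 neural crest and 0 of 12 surface ectoderm genes passed, while 1, 6, 0, 1, 1, 0 and 0 had an unadjusted p under 0.05. DESeq2 passed 3 endothelial genes and 1 of notochord and node, and 0 of the other 5 lists, beside 1682 of all 16790 genes. Their median log2 ratios ran from -0.20 for notochord and node to 0.38 for the neural tube. Hbb-bh1, an embryonic globin, had 203, 411 and 573 CPM in sections, against 175 and 345 CPM in bulk tissue (adjusted p = 0.215 by edgeR). Pecam1, an endothelial junction protein, had 37.0, 52.2 and 88.3 CPM in sections, against 40.9 and 39.7 CPM in bulk tissue (adjusted p = 0.0834 by edgeR). Single genes that passed were Prdm1 among 14 germ cell genes (lower), Lfng among 15 somite genes, Nid1 among 21 extracellular matrix genes, and Id2, Id3 and Smad6, all targets of BMP signalling, among 15 BMP and TGF-beta genes (all higher, log2 ratios 0.64, 0.47 and 0.49). Each of these 6 calls was lost without bulk replicate 1 (adjusted p from 0.0820 to 0.235) and without bulk replicate 2 (0.0747 to 0.171). All were also lost without some section libraries, at adjusted p from 0.0531 to 0.0998.

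**Figure D4:**
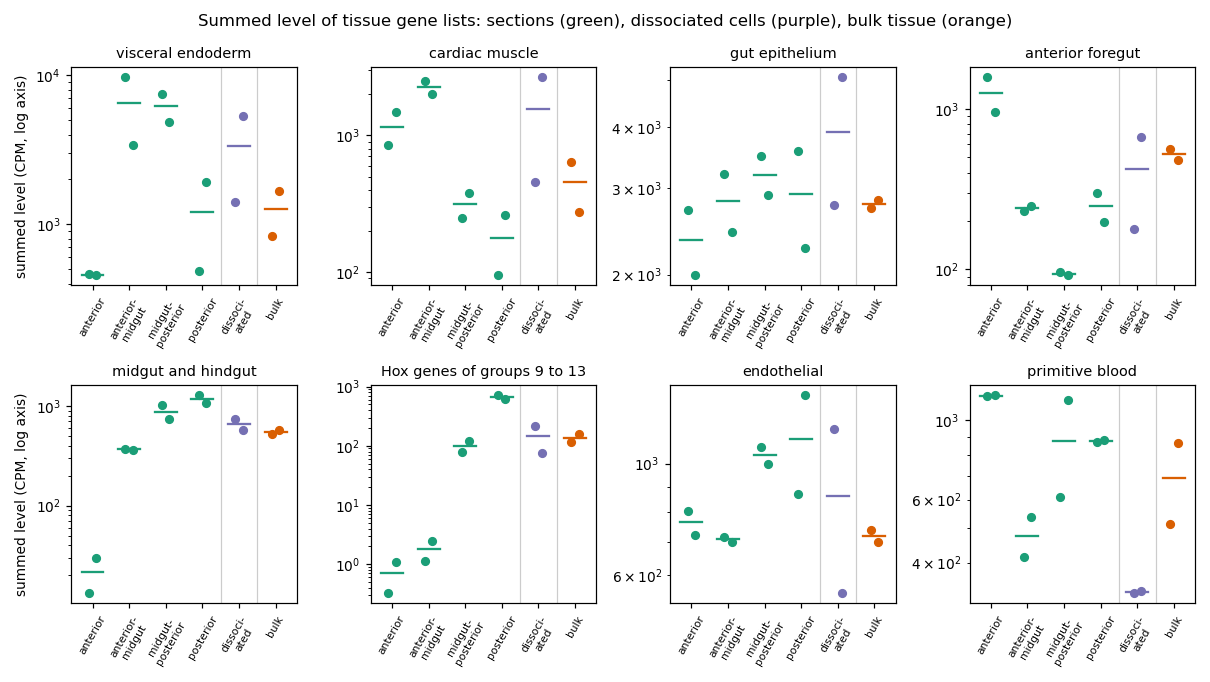
Summed level in CPM (log axis) of 8 tissue gene lists in each library, with sections from anterior to posterior at the left, dissociated cells next and bulk tissue at the right; bars are means of 2 libraries. Visceral endoderm genes peak in the 2 middle sections, cardiac genes in the anterior-midgut section, foregut genes in the anterior and Hox genes of groups 9 to 13 in the posterior section, and bulk tissue lies between.

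Sex-linked transcripts differed between libraries. Xist, expressed from the inactive X chromosome of females, had 79.3, 301 and 454 CPM in sections, against 1.49 and 548 CPM in bulk replicates 1 and 2. The bulk libraries were 368-fold apart and stood on either side of all sections, so they differed in the share of RNA from female embryos. Ddx3y, on the Y chromosome, had 14.6, 28.5 and 48.4 CPM in sections, against 27.5 and 14.9 CPM in bulk tissue, and its groups overlap.

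The genes that were higher in every section than in bulk tissue included several that bind RNA and a near-copy of an actin regulator. Gm9844, a predicted gene that the naming rule leaves out and that is named as the largest of them, had 65.6, 75.2 and 84.5 CPM in sections, against 6.33 and 5.59 CPM in bulk tissue. It was 12.6-fold higher in sections (log2 3.66, SE 0.10, adjusted p = 1.07e-06 by edgeR, and 1.83e-05 against every section). Its annotated transcript matches that of Tmsb10 at 462 of 466 aligned bases (99.1%), so reads of the 2 genes may be interchanged. Tmsb10 itself, an actin-binding thymosin, had 1162, 1310 and 1436 CPM in sections, against 622 and 540 CPM in bulk tissue (2.25-fold, adjusted p = 0.000272 by edgeR). Cwc22, a splicing factor, had 118, 161 and 193 CPM in sections, against 50.6 and 53.6 CPM in bulk tissue (log2 ratio 1.61, SE 0.09, adjusted p = 0.000208 by edgeR, but 0.0780 with all 16 libraries in the fit). Its E7.5 replicates were also far apart, at 238 and 82.0 CPM in extraembryonic and 241 and 69.5 CPM in embryonic visceral endoderm. A gap of that kind between like samples limits what its difference from bulk tissue can mean. Lbp, a lipopolysaccharide-binding protein, had 10.1, 15.1 and 20.6 CPM in sections, against 3.05 and 1.69 CPM in bulk tissue (6.61-fold, adjusted p = 0.000801 by edgeR).

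Gnas, the stimulatory G protein subunit from an imprinted locus of overlapping transcripts, had 70.2, 86.0 and 97.2 CPM in sections, against 33.6 and 31.3 CPM in bulk tissue (log2 ratio 1.37, SE 0.12, adjusted p = 0.00153 by edgeR). Hnrnpab, an RNA-binding protein of the spliceosome, had 1244, 1274 and 1368 CPM in sections, against 719 and 753 CPM in bulk tissue (1.75-fold, adjusted p = 0.000272 by edgeR). Ybx1 and Serbp1, which bind mRNA, and Srp19 of the signal recognition particle had smaller ratios of 0.71, 0.57 and 0.64 on the log2 scale. In the test against every section, Ybx1, Serbp1, Srp19 and Pcsk2 passed in 0 of the 10 fits that left out a library, Lbp in 2, Gnas in 3, Malat1 in 4, Bri3 in 6, Tmsb10 in 7, Cwc22, Hnrnpab, Ins1 and Gcg in 8 and Ins2 in 9. Malat1, a long noncoding RNA kept in the nucleus, went the other way, with 39.8, 51.1 and 61.9 CPM in sections, against 195 and 181 CPM in bulk tissue (log2 ratio -1.90, SE 0.14, adjusted p = 0.000702 by edgeR). Neat1, also nuclear, had 0.927, 1.80 and 2.12 CPM in sections, against 4.45 and 3.42 CPM in bulk tissue (adjusted p = 0.0246 by edgeR, lost in 5 of 10 fits that left out a library at 0.0504 to 0.215).

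The dissociated cells lay nearer to bulk tissue than to sections in several of these genes. Cwc22 had 52.7 and 47.8 CPM, Gm9844 6.58 and 9.55 CPM and Gnas 33.5 and 21.2 CPM in dissociated replicates 1 and 2. Malat1, at 127 and 81.7 CPM, lay between, above all section libraries and below both bulk libraries. Over the 479 genes higher in sections, both dissociated libraries lay below all 8 section libraries in 258 and within their range in 44. Over the 171 genes lower in sections, both lay above all section libraries in 79 and within their range in 25. In 176 of the 479 and 66 of the 171 the dissociated libraries lay in none of these places together, and in 195 of the 479 both were above both bulk libraries. The genes had been chosen for a difference between sections and bulk tissue. Whether sections and whole tubes were collected, amplified or sequenced together is not given in the sources used here, so cutting and any such batch cannot be told apart.

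Some gene families, grouped by symbol after the values were seen, held, in 1 direction each, a larger share of genes that passed than all genes did (2.85% higher and 1.02% lower). Of 369 zinc finger genes named Zfp and a number, 39 were lower in sections (10.6%) and 2 were higher, with a median log2 ratio of -0.31. Zfp866 had 10.7, 14.3 and 17.2 CPM in sections, against 34.1 and 38.1 CPM in bulk tissue (log2 ratio -1.35, SE 0.14, adjusted p = 0.00339 by edgeR). Of 82 ribosomal protein genes 14 were higher and 0 lower by edgeR, of 85 nuclear-encoded respiratory chain genes 12 and 0, of 77 mitochondrial ribosomal protein genes 12 and 0, and of 43 hnRNP, Srsf and Snrp genes 11 and 0. Their median log2 ratios, 0.17 to 0.23 for the first 3 and 0.16 for the last, are small. With library totals alone as the scale, the counts higher in sections were 6, 4, 2 and 7, and the count of Zfp genes lower was 55; each family's median kept its sign.

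The share of genes higher in sections also differed by transcript length. Among genes of at least 5 CPM with an annotated length, cut into 5 equal classes by their longest annotated transcript, 193 of 2139 genes up to 2097 bases were higher in sections and 14 lower. Of 2135 genes of 5511 bases or more, 24 were higher and 36 lower. The median log2 ratio was 0.14 in the shortest class and -0.01 in the longest. The part of RNA length, or of the fragments kept in each library, in these differences was not tested.

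**Figure D5:**
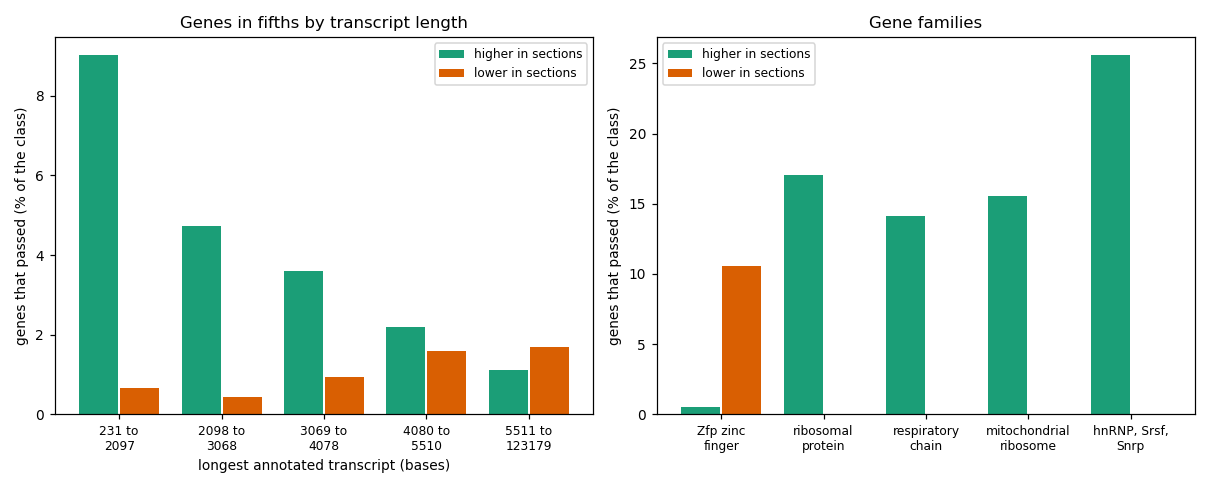
Share of genes that passed as higher (green) or lower (orange) in sections than in bulk tissue, at the left in 5 equal classes of genes by the longest annotated transcript in bases and at the right in 5 gene families. The share of higher genes falls from 9.02% in the shortest class to 1.12% in the longest, and the Zfp family alone has more lower (10.6%) than higher genes.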

How the data were processed

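Raw counts per gene symbol were deposited by the authors, 1 file per library, with no normalization: whole numbers that sum to a different total in each. Reads were of poly(A) RNA, per the labels, and STAR is named in the submitters' processing notes; the sources used here give no version, genome build, annotation or counter. Each file had 26795 entries, and repeated entries of 32 symbols were added up, leaving 26761. With edgeR 4.0.16 in R 4.3.3, genes were kept with filterByExpr (minimum count 10, total 15; 16790 genes), scaled by TMM and fitted with a quasi-likelihood model over the 8 section and 2 bulk libraries (5 residual degrees of freedom). The log2 ratio of the arithmetic mean of the 4 fitted section levels over bulk tissue was tested by the delta method, two-sided. The test against every section took the largest of the 4 p-values of sections against bulk tissue, where all 4 had the same sign. Both used Benjamini-Hochberg adjustment over all genes. A gene without a count in a group was set to 3 counts over that group for a bound.

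The fits were tested on simulated data with known changes. There the test of the mean made some false calls, and both tests missed most of the smallest changes. Within a group, libraries differed by more than sampling noise (chi-square per gene 42.7 to 103), and none were merged. Samples were grouped by title. The members and gene lists were chosen with earlier results of these data known. Genes were named where they passed both tests without overlap of libraries (the 12 largest ratios in each direction, with at least 3 log2 CPM in the higher group and no predicted genes), as up to 4 members of a list with the smallest p, or as key genes. Other members that passed are named with their list, and those, the islet and acinar genes and the gene families were chosen after their values were seen. Promoter windows are from RefSeq, and transcript lengths are from GENCODE M21. DESeq2 1.42.0 and the other alternatives are described with the closing results. The E7.5 libraries entered only an alternative fit. One result is not reported here.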

Additional observations from a re-analysis of the deposited data

Results flagged for a closer look

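Islet hormone transcripts appeared in libraries outside the comparison. In the dissociated cells, the lower of the 2 libraries was above both bulk libraries for 6 hormone genes: Ins2 at 107 CPM, Ins1 at 42.0 CPM, Gcg at 41.2 CPM, Iapp at 22.7 CPM, Sst at 2.60 CPM and Ppy at 2.14 CPM. At E7.5, in extraembryonic (exVE) and embryonic (emVE) visceral endoderm, some hormone genes had more than 3 counts in a library. Ins2 had 8 counts in exVE replicate 1, 20 in exVE replicate 2 and 4 in emVE replicate 2. Iapp had 12 counts in emVE replicate 1. Sst had 10 and 4 counts in exVE replicates 1 and 2 and 8 counts in emVE replicate 1. Ins1 and Gcg had 0 counts in every section library and in every E7.5 library. Section libraries held counts of the others as well, up to 10 for Ins2, 64 for Iapp and 88 for Sst in a library. Where these transcripts came from was not tested. With 2 libraries per group, no group was large enough for a search for outlying libraries.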

How the results depend on the processing

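Counts of genes that passed depended on how the spread was estimated. With all 16 libraries in the fit they were 189 for the mean of the sections (650 as reported), 6 beyond every section (15), and 319, 279, 217 and 553 for each section against bulk tissue, from front to back (711, 1048, 848 and 1457). With DESeq2 they were 1682, 135, 1853, 2521, 2624 and 2704. The mean of log levels gave 1049 and no filter on low counts gave 25 beyond every section. The replicate block gave 1249, 31, 1221, 1617 and 1637, and 17 immediate early genes (11). The labels tie the numbers to nothing shared, though the summed immediate early level was lower in replicate 1 of every group. Same-numbered deviations correlated at 0.0337 to 0.415 between sections, above 0.1 in 5 of 6 pairs. Between sections and bulk tissue they correlated at -0.0514 to 0.00886. Not every pair passed 0.1, and the fit without the block was kept. Its SE treats the sections as independent and leaves these correlations out. Leaving out 1 library gave 59 to 577, 2 to 13, 129 to 966, 38 to 1480, 30 to 1308 and 240 to 1519 genes in the same order, and 1 to 11 immediate early genes; where that leaves 1 library in a group, its spread is taken from the rest. Of 53 single genes that passed and were followed through the alternatives, DESeq2 and no filter kept all 53, library totals alone 47, all 16 libraries 37, and the fits without 1 library 20 (bulk replicate 1), 33 (bulk replicate 2) and 35 to 53 (section libraries).

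Among the single genes followed through the alternatives, directions turned only in those that had not passed. The other genes that passed were not followed in this way. With the mean of log levels, the log2 ratio was -0.59 for Myl7, -0.58 for Myh6, -2.55 for Nkx2-5 (adjusted p = 0.00785 by edgeR), -0.86 for Pdx1 and -0.18 for Xist. That mean is lower for any gene uneven among sections, so these turns come with the measure and decide nothing about bulk tissue. With fitted section weights it was 0.27 for Sox2 and -0.37 for Pdx1, and with library totals alone -0.058 for Xist. Without 1 library it ran from -0.29 to 0.19 for Cdx2, -0.32 to 0.093 for Sox2 and -0.98 to 7.54 for Xist. With 2 bulk libraries, 1 library decides much of the spread, and small differences can be missed.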
